A study of Mus musculus with 6 samples.

Results

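The genes described here encode proteins of neutrophil granules and of the neutrophil cytosol: Mpo, Elane and Prtn3 of primary granules, Ltf, Camp, Ngp and Lcn2 of secondary granules, the cytosolic S100a8 and S100a9, and Retnlg, which encodes a secreted resistin-like protein. The members are every array probe whose annotated gene symbol is 1 of these 10 names, which gave 14 of 45281 probes and 10 of 19057 annotated genes, with 4 probes for Mpo, 2 for Ltf and 1 for each other gene. The study used mouse bone marrow cells grown for 1 week in the growth factor GM-CSF to become dendritic cells. The cells were then fed ovalbumin carrying the fluorescent dye Alexa647, a glycoprotein taken up through the mannose receptor (MR), and were sorted by flow cytometry into MR-negative and MR-positive cells, so the sort rested on ovalbumin uptake. RNA of each population was measured on 3 Illumina bead arrays, with titles numbered M1 to M3 in each. All 6 arrays share the GM-CSF culture and the ovalbumin feeding, and the sources used here do not give mouse strain, sex or age.

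A neutrophil fills its granules in sequence as it matures in bone marrow. Primary, or azurophil, granules come first, at the promyelocyte stage, and hold myeloperoxidase and serine proteases; secondary, or specific, granules follow at the myelocyte stage and hold iron-binding and antimicrobial proteins. S100A8 and S100A9 form calprotectin, a calcium- and zinc-binding complex of the cytosol that is abundant in neutrophils and monocytes. Marrow cultured in GM-CSF is known to hold granulocytes as well as dendritic cells and macrophages.

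The arrays detected 35.3% to 36.8% of their probes at a detection p under 0.05, and 9 to 11 of the 14 probes described here. Levels below are either the non-normalized intensity, in arbitrary units, or log2 of the background-corrected and quantile normalized intensity plus 16. Each difference is the MR-positive mean less the MR-negative mean on that log2 scale, with the standard error (SE) of the limma fit. Mrc1, which encodes the mannose receptor, was 9.40 ± 0.69 on MR-negative and 12.03 ± 0.56 on MR-positive arrays (SD, n = 3), a difference of 2.64 ± 0.39 (limma adjusted p = 0.0051), in the direction of the labels. The M1 arrays had the lowest mean correlation with the other arrays of their population, 0.972 and 0.979 against 0.980 to 0.986 for the others. Precision is limited by having 3 arrays in each population.

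Of the 14 probes 10 passed the filter on detection, 9 of them detected on all 6 arrays. Every granule and cytosolic gene that could be tested had a lower mean on the MR-positive arrays. Of the 10 tested probes, which cover 9 genes, those of Lcn2 and Prtn3 fell past the threshold, an adjusted p under 0.05 over all 16686 tested probes, and none rose. Over all tested probes, 6.58% fell and 7.19% rose by the same rule. The median difference was -0.76 over the 10 probes and 0.02 over all tested probes. The labels do not say what the title numbers stand for. Arrays of 1 title number were taken as pairs since their deviations from population means correlated by 0.708 (M1), 0.569 (M2) and 0.275 (M3). Unlike numbers M2 and M3 reached 0.382, so the data do not single out the M3 pair. With the number as a block in the limma fit, 9 of the 10 probes fell, all but that of Camp, and none rose. By the same fit 13.1% of all probes fell and 27.7% were called in either direction. MR-positive arrays were below the MR-negative array of the same number in all 3 pairs for 10 of 10 probes, against 27.4% of all probes. The 10 include the dimmer Mpo probe, which met the detection filter through its MR-negative arrays alone and is no separate support. By gene, 8 of the 9 tested genes fell with the block, against 13.6% of all genes. The 2 populations did not overlap for 5 probes, those of Lcn2, Prtn3, Elane, Ngp and the brighter Mpo probe, against 15.2% of all probes that were lower without overlap and 17.5% that were higher. Without the block the count of 2 depended on the arrays used: it was 5 without the M1 MR-positive array, 5 without the M2 MR-negative array, 7 without both M1 arrays and 1 without both M3 arrays. The count over all tested probes also moved, from 2298 with all arrays to between 216 and 3485 when 1 array or both arrays of a number were left out. A change in the count of 2 therefore need not be particular to these genes. A low level in bulk RNA can mean fewer cells of a type or less RNA per cell, which cannot be told apart here.

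**Figure D1:**
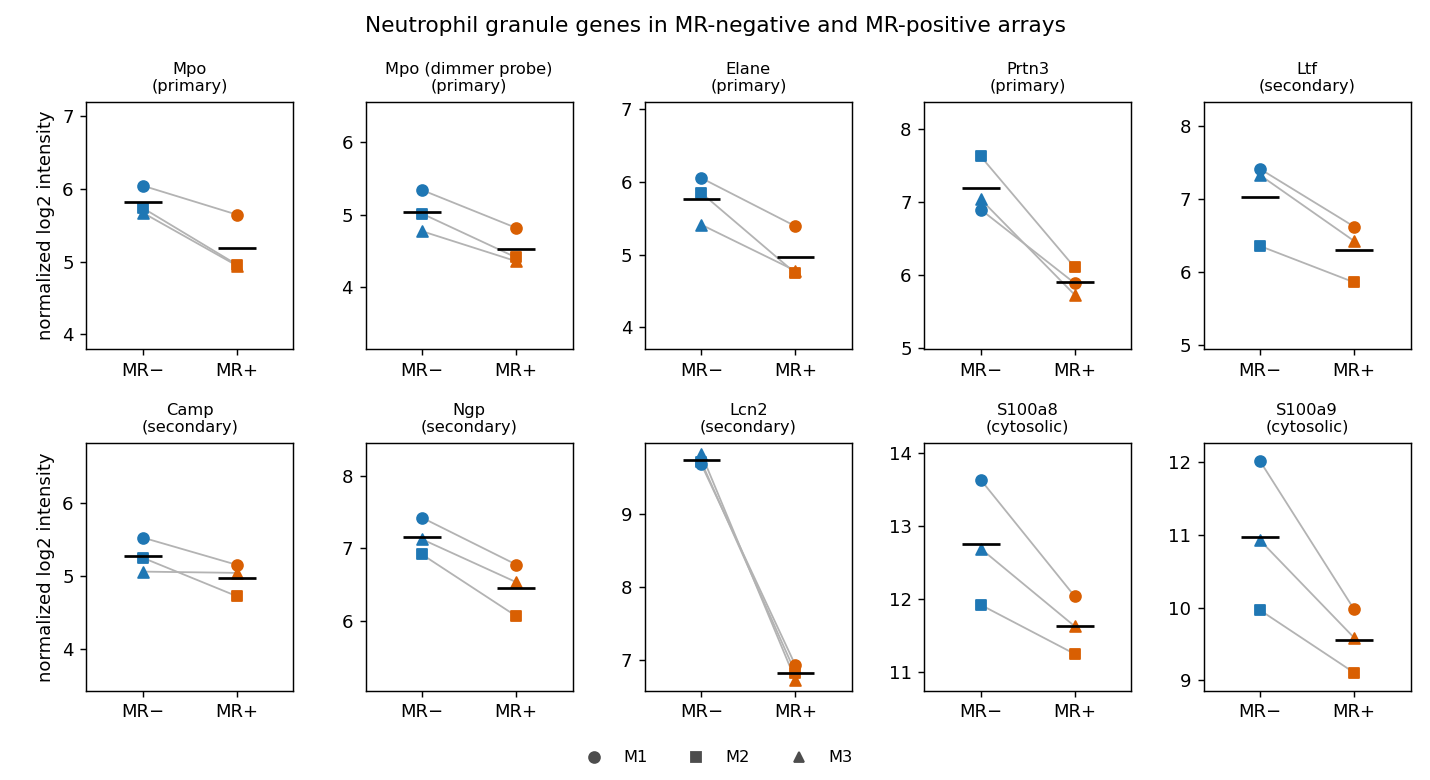
Normalized log2 intensity (y axis, each panel spanning the same number of log2 units) of the 10 tested probes on MR-negative (blue, left) and MR-positive (orange, right) arrays. Symbols give the title number, grey lines join arrays of 1 number and black bars are means of 3 arrays; every line runs downward.

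The 3 primary granule genes were all lower on MR-positive arrays, and Prtn3 alone passed the test without the block. Elane, which encodes neutrophil elastase, and Prtn3, which encodes proteinase 3, are next to each other among the protein-coding genes of chromosome 10, and Mpo, which encodes myeloperoxidase, the enzyme that makes hypochlorous acid, is on chromosome 11. The 250 bases before each start site are shown because these genes are known to be driven by ETS factors such as PU.1, with capitals marking GAGGAAGT, a sequence of the ETS type. The windows are from RefSeq, build GRCm38.p6, plus strand, at chr10:79879417-79879666 for Prtn3, chr10:79886062-79886311 for Elane and chr11:87793534-87793783 for Mpo.
Prtn3: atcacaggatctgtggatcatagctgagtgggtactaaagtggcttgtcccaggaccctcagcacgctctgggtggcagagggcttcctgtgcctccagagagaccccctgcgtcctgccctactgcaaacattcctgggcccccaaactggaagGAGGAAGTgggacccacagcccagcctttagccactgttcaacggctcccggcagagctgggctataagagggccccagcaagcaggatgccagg
Elane: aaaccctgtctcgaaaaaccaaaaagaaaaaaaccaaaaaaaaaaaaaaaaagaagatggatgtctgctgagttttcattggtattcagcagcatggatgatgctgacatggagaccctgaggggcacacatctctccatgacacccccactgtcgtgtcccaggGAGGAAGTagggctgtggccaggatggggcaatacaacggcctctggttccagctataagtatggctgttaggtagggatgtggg
Mpo: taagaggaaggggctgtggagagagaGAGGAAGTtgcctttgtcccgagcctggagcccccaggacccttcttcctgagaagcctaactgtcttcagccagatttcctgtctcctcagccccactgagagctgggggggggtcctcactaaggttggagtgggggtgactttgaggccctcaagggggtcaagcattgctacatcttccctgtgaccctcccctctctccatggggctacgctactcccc
The match starts 95 bases before the start site in Prtn3, 85 in Elane and 224 in Mpo. GAGGAAGT was searched on both strands of the 300-base RefSeq windows, from 250 bases before to 50 after the start, and 3.2% of 32851 windows held it, against 4 of the 10 genes described here. The other gene of these is S100a8, where it lies on the opposite strand. The motif was chosen after these windows had been read, and a match is only a match of letters.

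Prtn3 had non-normalized intensities of 143, 218 and 153 on the M1, M2 and M3 MR-negative arrays and 69.1, 74.0 and 56.6 on the MR-positive arrays. On the log2 scale these were 6.90, 7.63 and 7.04 against 5.88, 6.10 and 5.72. Every MR-negative array lay above every MR-positive array, and M2 was the highest in both populations. Prtn3 fell by 1.28 ± 0.21 (95% interval -1.78 to -0.79), or 2.44-fold (limma adjusted p = 0.0076, and 5.0e-04 with the block). Without both M3 arrays it no longer passed (limma adjusted p = 0.138).

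Elane gave 86.8, 70.7 and 57.0 on the MR-negative and 52.3, 36.4 and 35.6 on the MR-positive arrays, in array order M1 to M3, or 6.05, 5.85 and 5.41 against 5.39, 4.74 and 4.78 in log2. The populations did not overlap, but the lowest MR-negative array, M3, was almost level with the highest MR-positive array, M1. The difference was -0.80 ± 0.23 (95% interval -1.34 to -0.26), 1.74-fold lower, with a limma adjusted p of 0.0632, and 0.0040 with the block. Elane passed without the block when the M1 MR-positive array was left out (limma adjusted p = 0.0262).

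The brighter Mpo probe, ILMN_1249030, gave 86.4, 66.2 and 65.6 on MR-negative arrays M1 to M3 and 60.5, 40.2 and 38.4 on the MR-positive arrays. Its log2 levels of 6.04, 5.74 and 5.67 were all above the MR-positive levels of 5.65, 4.96 and 4.95, by a narrow margin between the nearest arrays. The M1 array was the highest of each population. The difference was -0.63 ± 0.22 (95% interval -1.14 to -0.13), 1.55-fold lower (limma adjusted p = 0.102, and 0.0076 with the block), and without the M1 MR-positive array it passed (limma adjusted p = 0.0181).

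A dimmer Mpo probe, ILMN_2600421, was detected on all 3 MR-negative arrays, at 57.0, 44.5 and 40.3, and on 1 of 3 MR-positive arrays, M1, at 38.1; M2 and M3 gave 31.0 and 28.9. Its difference was -0.51 ± 0.19 (limma adjusted p = 0.131, and 0.0105 with the block), and its populations overlapped by a small margin. Of the other Mpo probes, ILMN_2719256 was detected on the M3 MR-negative array only, at 40.8, and ILMN_2925094 on none, so neither was tested. ILMN_2600421 met the detection filter through its MR-negative arrays alone, so its direction is no separate support for that of the brighter probe.

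**Figure D2:**
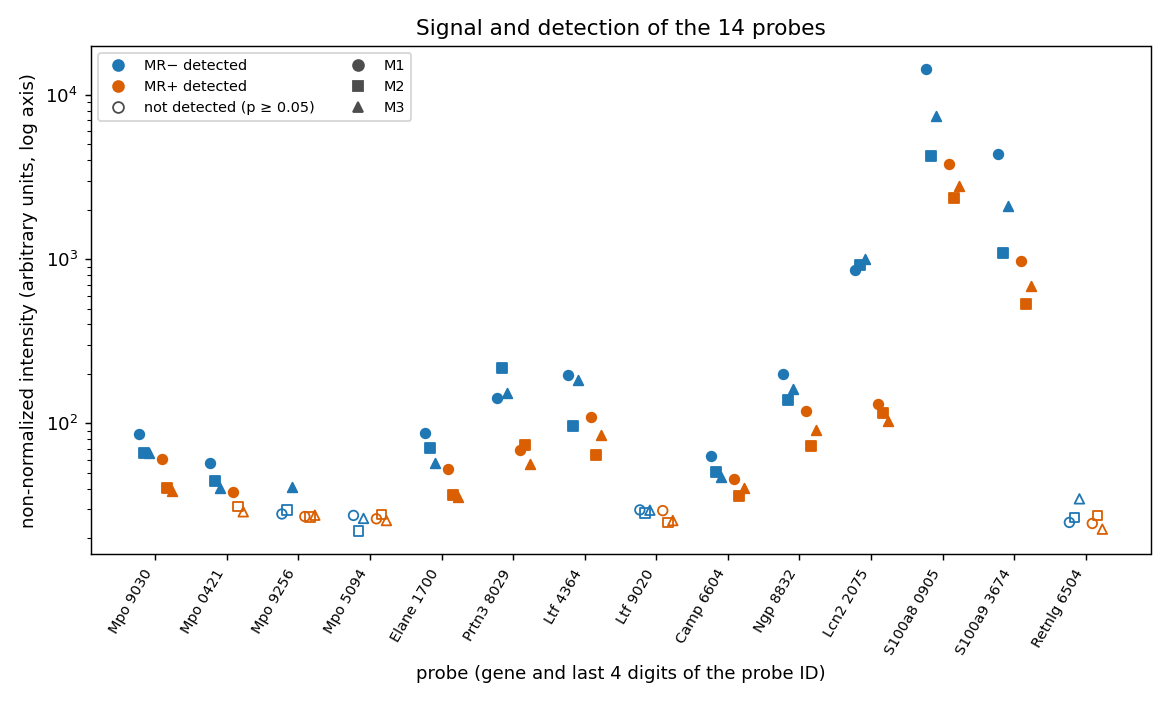
Non-normalized intensity (y axis, log axis, arbitrary units) of all 14 probes by array, MR-negative in blue and MR-positive in orange, with symbols for the title number. Filled points have a detection p under 0.05; 3 probes, of Mpo, Ltf and Retnlg, are open on all 6 arrays.

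Among the 4 secondary granule genes, Lcn2 fell on the MR-positive arrays by more than any other of the 10 genes, and Ltf, Ngp and Camp had smaller differences that did not pass without the block. Lcn2 encodes lipocalin 2, or neutrophil gelatinase-associated lipocalin, which binds bacterial siderophores and so withholds iron. Outside neutrophils it is also known as a gene that macrophages and epithelia switch on in inflammation. The window before its start site, on the minus strand at chr2:32387740-32387989 of GRCm38.p6, is shown with capitals on a match to TTNNGNAA, a pattern of the C/EBP type, which here is read on the strand opposite to the one printed, since C/EBP factors are known to drive secondary granule genes.
Lcn2: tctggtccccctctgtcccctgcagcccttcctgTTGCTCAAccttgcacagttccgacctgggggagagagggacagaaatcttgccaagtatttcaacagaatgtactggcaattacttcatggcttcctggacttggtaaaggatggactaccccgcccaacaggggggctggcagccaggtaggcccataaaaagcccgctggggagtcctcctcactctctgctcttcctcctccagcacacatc
The match starts 216 bases before the start site. TTNNGNAA, searched on both strands, was in the 300-base windows of 6 of the 10 genes, namely Lcn2, Ltf, Ngp, S100a8, S100a9 and Retnlg, and in 40.7% of all windows, and no match overlapped another motif match. The letters of this motif were also chosen after the windows had been read.

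Lcn2 gave 860, 921 and 1008 on MR-negative arrays M1 to M3 and 131, 116 and 103 on the MR-positive arrays, or 9.69, 9.72 and 9.83 against 6.93, 6.83 and 6.73 in log2. The 3 arrays of each population lay within a narrow band, far from the other population. Lcn2 fell by 2.92 ± 0.12 (95% interval -3.19 to -2.64), or 7.56-fold (limma adjusted p = 5.1e-05, and 1.5e-05 with the block). Among 9370 genes with a tested probe it ranked 42 by size of fall. It fell past the threshold under each of the 21 alternatives run, with differences of -3.10 to -2.60.

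Ngp, which encodes neutrophilic granule protein, a cathelicidin- and cystatin-like protein of mouse secondary granules, gave 198, 138 and 162 on the MR-negative and 120, 72.6 and 90.8 on the MR-positive arrays M1 to M3. Its log2 levels of 7.42, 6.92 and 7.13 lay above those of 6.78, 6.07 and 6.54 without overlap, and in both populations M1 was the highest and M2 the lowest. The difference was -0.69 ± 0.21 (95% interval -1.19 to -0.19), 1.62-fold lower (limma adjusted p = 0.0762, and 0.0035 with the block). It passed without the M1 MR-positive array (limma adjusted p = 0.0485) and with the arrays scaled to equal medians only (limma adjusted p = 0.0481).

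Ltf, which encodes lactoferrin, an iron-binding protein, gave 197, 96.6 and 184 on MR-negative and 109, 64.1 and 84.8 on MR-positive arrays M1 to M3, or 7.41, 6.35 and 7.33 against 6.62, 5.86 and 6.42 in log2. The M2 MR-negative array lay below 2 of the MR-positive arrays, so the populations overlapped, while the pairs of M1, M2 and M3 differed by -0.79, -0.50 and -0.90. The difference was -0.73 ± 0.32 (95% interval -1.47 to 0.01), 1.66-fold lower (limma adjusted p = 0.189, and 0.0041 with the block). Without the M2 MR-negative array Ltf fell by 1.07 and passed (limma adjusted p = 0.0462). The second Ltf probe was detected on no array.

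Camp encodes the mouse cathelicidin, an antimicrobial peptide precursor, and gave 63.4, 50.5 and 46.8 on MR-negative and 45.7, 36.1 and 40.2 on MR-positive arrays M1 to M3. The log2 levels, 5.53, 5.25 and 5.06 against 5.16, 4.73 and 5.05, overlapped, and the M3 pair differed by only -0.02. The difference of -0.31 ± 0.17 (95% interval -0.71 to 0.10) did not pass with or without the block (limma adjusted p = 0.120 and 0.315). It was -0.18 without the M1 MR-negative or the M2 MR-positive array (limma adjusted p = 0.532 and 0.633). Camp was the only gene of the 9 that passed under none of the alternatives run.

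**Figure D3:**
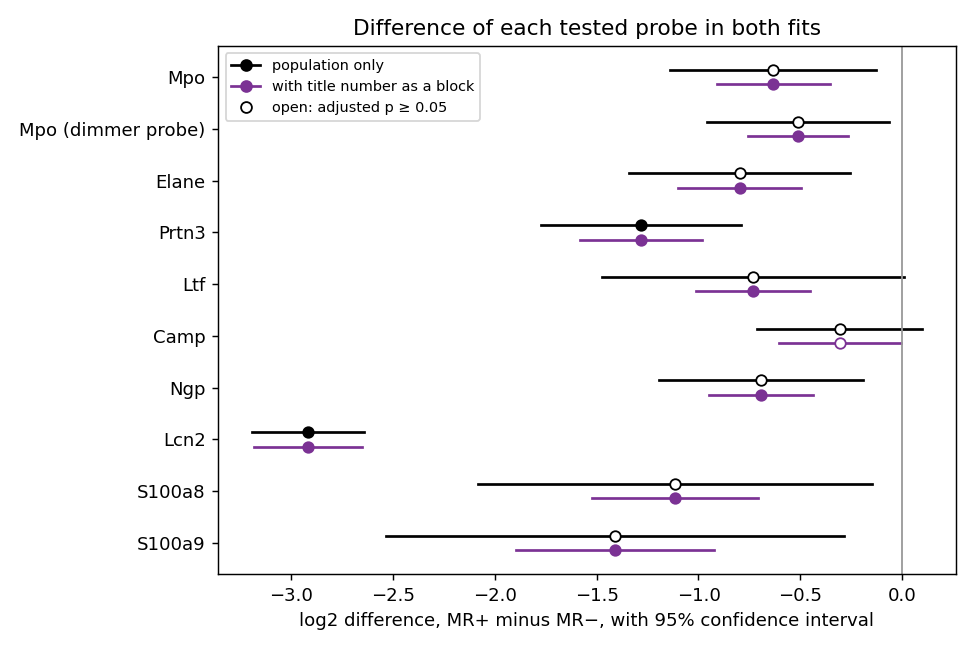
Log2 difference (x axis, MR-positive minus MR-negative) of each tested probe with its 95% confidence interval, from the fit with the population alone (black) and with the title number as a block (purple). Filled points have a limma adjusted p under 0.05: 2 probes in black, 9 in purple.

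S100a8 and S100a9, the cytosolic pair, had large mean differences and a wide spread between arrays, and they overlapped between the populations. They are next to each other on chromosome 3. Their windows before the start site, at chr3:90668821-90669070 on the plus strand for S100a8 and chr3:90695722-90695971 on the minus strand for S100a9 (GRCm38.p6), are shown because the 2 genes moved together across the arrays, with capitals on motif matches. In S100a8 they mark TTNNGNAA on the printed strand and GAGGAAGT read on the opposite strand, and both S100a9 matches are TTNNGNAA read on the opposite strand.
S100a8: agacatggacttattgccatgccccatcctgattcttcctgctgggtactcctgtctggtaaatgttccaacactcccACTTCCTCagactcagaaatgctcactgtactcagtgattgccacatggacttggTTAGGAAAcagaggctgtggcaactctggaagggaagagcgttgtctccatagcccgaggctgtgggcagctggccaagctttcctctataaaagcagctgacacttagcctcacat
S100a9: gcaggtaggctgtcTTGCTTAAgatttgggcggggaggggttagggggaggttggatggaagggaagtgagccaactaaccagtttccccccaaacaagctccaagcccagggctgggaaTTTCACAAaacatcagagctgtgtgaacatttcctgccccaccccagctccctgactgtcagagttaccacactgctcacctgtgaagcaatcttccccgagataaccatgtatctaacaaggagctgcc
The TTNNGNAA matches start 117 bases before the start site in S100a8 and 236 and 130 before it in S100a9. The GAGGAAGT match starts 172 bases before the S100a8 start.

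S100a8 gave 14389, 4224 and 7401 on MR-negative arrays M1 to M3 and 3802, 2342 and 2778 on MR-positive arrays, or 13.64, 11.92 and 12.69 against 12.04, 11.25 and 11.63 in log2. The M2 MR-negative array lay below the M1 MR-positive array. The difference was -1.11 ± 0.41 (95% interval -2.08 to -0.15), 2.16-fold lower (limma adjusted p = 0.128, and 0.0035 with the block). Without the M2 MR-negative array S100a8 fell by 1.50 and passed (limma adjusted p = 0.0460), and without the M1 MR-negative array the difference was -0.67 and did not pass (limma adjusted p = 0.179).

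S100a9 gave 4351, 1086 and 2121 on MR-negative and 975, 534 and 687 on MR-positive arrays M1 to M3, or 12.01, 9.96 and 10.92 against 9.98, 9.11 and 9.59 in log2. Here too the M2 MR-negative array lay just under the M1 MR-positive array, at 9.96 against 9.98. The difference was -1.41 ± 0.48 (95% interval -2.54 to -0.28), 2.66-fold lower (limma adjusted p = 0.102, and 0.0028 with the block). Without the M2 MR-negative array S100a9 fell by 1.91 and passed (limma adjusted p = 0.0294), and without the M1 MR-negative array the difference was -0.89 and did not pass (limma adjusted p = 0.129).

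Retnlg, the resistin-like gene, was detected on no array. Its intensities were 24.9, 26.6 and 34.6 on MR-negative and 24.5, 27.4 and 22.6 on MR-positive arrays, near the array medians of 27.6 to 30.3. The lowest detection p was 0.0566, on the M3 MR-negative array, so only an upper bound on its level was measured.

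By granule type, 1 of 4 tested primary, 1 of 4 secondary and 0 of 2 cytosolic probes fell in the limma fit without the block. With it 4, 3 and 2 fell. Over all tested probes 6.58% fell without the block and 13.1% with it. The 4 primary probes cover 3 genes, since Mpo has 2, and the dimmer Mpo probe met the filter through its MR-negative arrays alone. Both cytosolic probes were under an unadjusted limma p of 0.05, as were 4581 of all 16686 tested probes in either direction. The medians were -0.72 for primary (range -1.28 to -0.51), -0.71 for secondary (range -2.92 to -0.31) and -1.26 for the cytosolic pair. The ranges of the first 2 types overlap widely, and the spread within a type was larger than the gap between their medians. Lcn2 fell by 1.80 more than S100a8 on the log2 scale (two-sided exact permutation test, p = 0.1, adjusted 0.15 over 3 pairs) and by 1.51 more than S100a9 (exact permutation p = 0.2, adjusted 0.2). The change of S100a8 was smaller than that of S100a9 by 0.30 (exact permutation p = 0.1, adjusted 0.15). With 3 against 3 arrays, 0.1 is the smallest p this test can give, so none of these contrasts could pass.

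The order of the arrays did not separate the genes by granule type, and most of them were highest on M1 in both populations. S100a8, S100a9, Ltf and Ngp were each highest on M1 and lowest on M2 in both populations. Prtn3 was highest on M2 in both, and Elane, Mpo and Camp were highest on M1 in both. After subtracting each population's mean, S100a8 and S100a9 had a Pearson correlation of 0.999 over the 6 arrays. Mpo and Elane had 0.915, Camp and Ngp 0.840, Mpo and Ngp 0.762, and Prtn3 and Ltf -0.930. Lcn2 had 0.026 with S100a8. These values share 6 arrays and are given as a description.

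The genes whose log2 levels followed each member most closely over the 6 arrays, among 9369 others, were taken as the 3 with the highest Pearson r. For Lcn2 they were Kmo (r = 0.9994), which encodes kynurenine 3-monooxygenase, Nsun4 (0.9993) and Prkcb (0.9988), and Kmo fell by 2.40 (limma adjusted p = 5.5e-05). For S100a8 the first was S100a9 (r = 0.9988), then Psat1 (0.995) and Fam3c (0.994), and S100a9 had S100a8, Fam3c (0.994) and Arf5 (0.992). Prtn3 had Med16 (0.994), which lies on chromosome 10 beyond Elane and Cfd, Hnrnph1 (0.994) and Icos (0.994). Elane had Prpf8 (0.997), Senp7 (0.995) and Fam53a (0.986), and Mpo had Arrdc1 (0.9995), Cyb561a3 (0.9987) and Tmem168 (0.995). Ngp had Ly6f (0.991), Srpk2 (0.989) and Tmem238 (0.988), Ltf had Iars (0.994), 3110082I17Rik (0.989) and Arhgef10l (0.978), and Camp had Caprin1 (0.993), Rfwd3 (0.985) and Tia1 (0.979). Correlations this high were found for members that passed the test and for members that did not.

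Other granulocyte genes moved in both directions. They are counted with 1 probe for each gene, and over all 9370 genes 7.13% fell and 8.19% rose, or 13.6% and 16.4% with the block. Of 7 other tested genes listed with the primary granule 1 fell, 2 rose and 4 did not pass, with a median difference of 0.42. Not all of them encode granule proteins, and the 1 that fell was Ms4a3. Ms4a3, a membrane protein gene of granulocyte and monocyte progenitors, fell by 1.83 ± 0.36 (limma adjusted p = 0.016). Cd63, a tetraspanin of azurophil granules and of lysosomes in most cells, rose by 0.96 ± 0.13 (limma adjusted p = 0.0031), and Hexa, a lysosomal hexosaminidase gene, by 0.60 ± 0.11 (limma adjusted p = 0.011). Ctsg, which encodes cathepsin G, the azurophil protease related to elastase, differed by 0.42 ± 0.35 (limma adjusted p = 0.51), and Bpi was detected on no array. The fall of Ms4a3 no longer passed without the M2 MR-positive (limma adjusted p = 0.054), the M3 MR-negative (0.071) or the M3 MR-positive array (0.065).

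Of 12 tested genes of other secondary and tertiary granule proteins 2 fell, 2 rose and 8 did not pass, with a median of 0.10; with the block 4 fell and 3 rose. Pglyrp1, a peptidoglycan recognition protein gene of neutrophil granules, fell by 1.95 ± 0.14 (limma adjusted p = 2.5e-04), and Cd177, a neutrophil surface and granule protein gene, by 0.63 ± 0.13 (limma adjusted p = 0.021). Orm1, an acute phase glycoprotein gene detected on 2 of 3 MR-negative arrays, rose by 2.51 ± 0.22 (limma adjusted p = 5.9e-04), and Cyba, a subunit gene of the phagocyte oxidase, by 0.64 ± 0.12 (limma adjusted p = 0.013). Mmp8, neutrophil collagenase, differed by 0.03 ± 0.18 and Mmp9, gelatinase B of tertiary granules, by 0.42 ± 0.29, and neither passed. Cd177 lost its call without the M1 MR-positive (limma adjusted p = 0.056), M2 MR-positive (0.080), M3 MR-negative (0.092) or M3 MR-positive array (0.058). Cyba lost its call without the M2 (0.061) or M3 MR-positive array (0.056), and with equal medians only its rise was 0.26 (limma adjusted p = 0.23).

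Of 16 tested cytosolic granulocyte and S100 family genes 4 fell, 3 rose and 9 did not pass, with a median of -0.03. Stfa2, Stfa1 and Stfa2l1, which encode stefin A cysteine protease inhibitors and are near-identical copies whose probes may share signal, fell, with differences of -3.65 ± 0.39, -3.48 ± 0.35 and -3.43 ± 0.36 (limma adjusted p = 0.0013, 9.6e-04 and 0.0012). Ifitm6, an interferon-induced transmembrane family gene of myeloid cells, fell by 1.83 ± 0.12 (limma adjusted p = 2.3e-04). S100a1 rose by 2.44 ± 0.25 (limma adjusted p = 0.0011), Wfdc17 by 1.78 ± 0.21 (0.0019) and Anxa1, annexin A1, by 1.15 ± 0.19 (0.0074). The other tested S100 genes did not pass without the block, with S100a13 at 0.43 ± 0.16 (limma adjusted p = 0.12, and 0.018 with the block), S100a14 at 0.27 ± 0.15, S100a6 at 0.08 ± 0.14, S100a10 at -0.01 ± 0.12, S100a11 at -0.06 ± 0.13 and S100a4 at -0.16 ± 0.36. S100a5, detected on no MR-positive array, was at least 1.16-fold lower there and did not pass (limma adjusted p = 0.14).

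Of 11 tested neutrophil surface and maturity genes 2 fell, 2 rose and 7 did not pass, with a median of 0.27. Mmp25, a membrane-bound metalloprotease gene of leukocytes, was detected on all MR-negative and no MR-positive arrays and was at least 4.60-fold lower on the latter, a bound set by the dimmest detected probes there (limma adjusted p = 3.8e-04). Lrg1, a leucine-rich glycoprotein gene of neutrophil granules, fell by 0.91 ± 0.15 (limma adjusted p = 0.0075) and was detected on 1 of 3 MR-positive arrays. Mgst1 rose by 1.27 ± 0.12 (limma adjusted p = 7.0e-04), and Clec4e, the Mincle receptor gene, by 0.95 ± 0.20 (0.022), which did not pass without the M2 MR-positive (0.069), M3 MR-negative (0.068) or M3 MR-positive array (0.078). Csf3r, the G-CSF receptor gene, differed by 0.27 ± 0.16 (limma adjusted p = 0.35), and Cxcr2, the chemokine receptor of mature neutrophils, was detected on no array. Ly6g and Fpr1 were not analysed here.

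**Figure D4:**
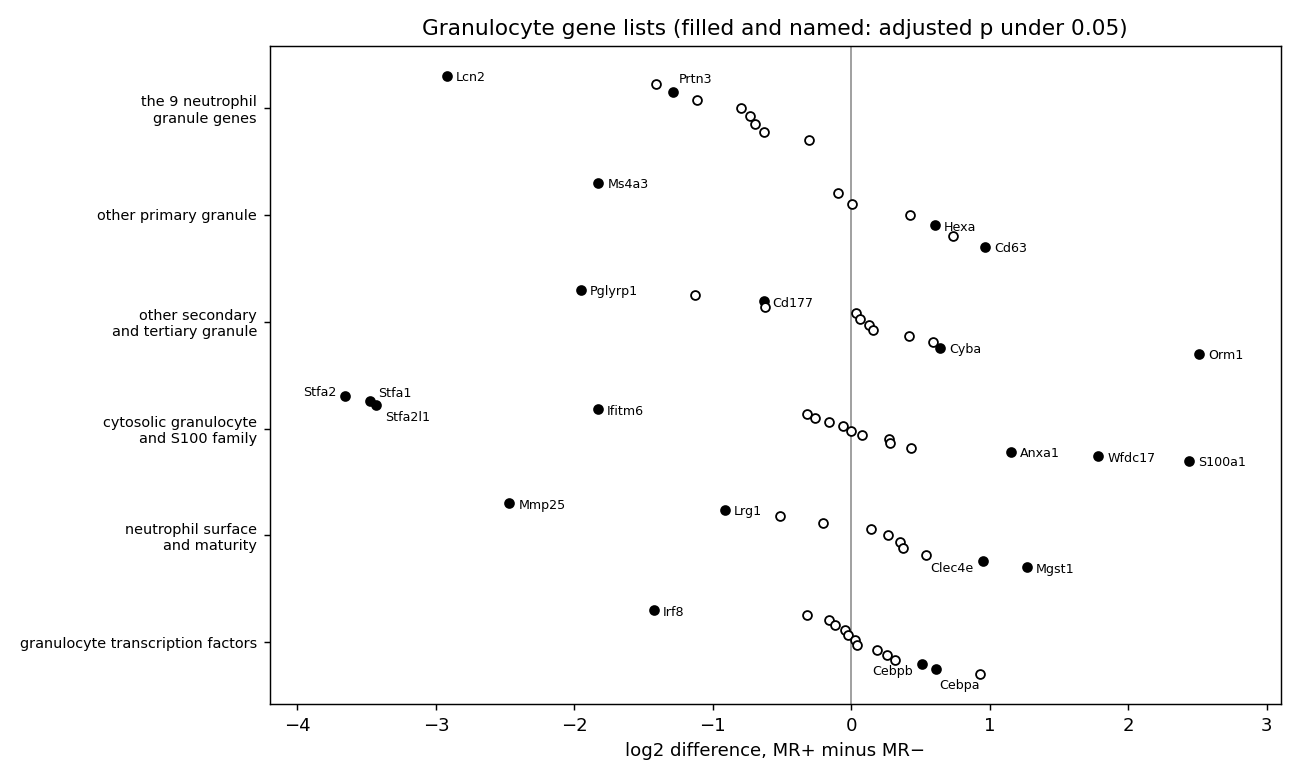
Log2 difference (x axis, MR-positive minus MR-negative) of each tested gene in 6 granulocyte gene lists (y axis), with points spread vertically by rank. Filled, named points have a limma adjusted p under 0.05; the 9 neutrophil granule genes all lie left of 0, while each other list has filled points on both sides.

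Of 14 tested granulocyte transcription factor genes 1 fell, 2 rose and 11 did not pass, with a median of 0.04. Irf8, which favours monocytes and dendritic cells over granulocytes, fell by 1.43 ± 0.16 (limma adjusted p = 0.0017). Cebpb, needed for emergency granulopoiesis, rose by 0.51 ± 0.12 (limma adjusted p = 0.027). Cebpa, the early granulocyte factor, was detected on no MR-negative array and was at least 1.37-fold higher on MR-positive arrays (limma adjusted p = 0.040). Cebpe, the factor of secondary granule genes, differed by -0.32 ± 0.24 (limma adjusted p = 0.47) and Gfi1 by 0.26 ± 0.16 (0.36). Spi1, which encodes PU.1, differed by 0.04 ± 0.11 (limma adjusted p = 0.86). The rise of Cebpb did not pass without either M2 array, MR-negative (0.088) or MR-positive (0.108), or either M3 array (0.103 and 0.097), and not with cyclic loess (0.053) or equal medians (0.27). Cebpa did not pass without the M1 MR-negative (0.051), the M2 (0.126 and 0.116) or the M3 arrays (0.116 and 0.105).

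Among receptors and partners of the granule proteins 0 of 14 tested genes fell and 1 rose in the limma fit without the block. At an unadjusted p under 0.05, 1 was lower and 2 were higher, beside 13.2% and 16.1% of all genes, and in limma with the block 2 fell and 4 rose. Lrp1, an endocytic receptor that binds lactoferrin, rose by 1.00 ± 0.19 (limma adjusted p = 0.015), but not past the threshold without the M2 MR-negative or the M3 MR-positive array (0.057 for each). Slc22a17, the lipocalin 2 receptor gene, differed by -0.03 ± 0.13 and was detected on 3 arrays. Tlr4, a receptor for S100A8 and S100A9, differed by 0.53 ± 0.26 (limma adjusted p = 0.25, and 0.030 with the block). Of 12 tested genes of granulocyte growth factor signalling 2 fell and 0 rose, with 0 higher at an unadjusted p under 0.05, and with the block 2 fell and 2 rose. Jak2, the kinase of the GM-CSF receptor, fell by 1.37 ± 0.16 (limma adjusted p = 0.0017), and Stat5a by 0.95 ± 0.17 (0.011, and 0.055 without the M3 MR-positive array).

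Markers of other cell types also differed between the populations. Levels were summed over the tested genes as normalized intensity less the offset. The 9 tested genes described here, cytosolic pair included, ran from 6121 to 18191 on MR-negative and from 3227 to 5581 on MR-positive arrays. Most of this sum is S100a8 and S100a9, whose populations overlapped. Their mean non-normalized intensities on MR-negative arrays were 8672 and 2520, against 930 for Lcn2, the next brightest. Of 14 tested dendritic cell markers 10 fell and 2 rose, with summed levels of 45063 to 54268 on MR-negative and 22617 to 29338 on MR-positive arrays. Most of this sum is Cd74, H2-Ab1, H2-Eb1 and H2-Aa, with mean log2 levels of 13.90, 13.87, 13.38 and 12.56 on MR-negative arrays. On MR-positive arrays these were 13.39, 12.68, 11.71 and 11.89. Ccr7, the chemokine receptor of mature dendritic cells, fell by 3.23 ± 0.28 (limma adjusted p = 5.6e-04) and Itgax, the CD11c gene, rose by 1.22 ± 0.19 (0.0064); Flt3, Siglech and Xcr1 were detected on no array. Of 12 tested macrophage and monocyte markers 1 fell and 2 rose, with sums of 47932 to 50082 and 50409 to 53592. Most of this sum is Lyz1 and Lyz2, and neither passed. Their mean log2 levels were 14.37 and 14.07 on MR-negative and 14.45 and 14.20 on MR-positive arrays. Lyz2 is also counted among the other secondary and tertiary granule genes above. Mertk, a receptor for apoptotic cells, rose by 2.10 ± 0.28 (limma adjusted p = 0.0033) and C1qc by 1.27 ± 0.28 (0.026). Ly6c1 was the marker that fell, by 0.77 ± 0.13 (limma adjusted p = 0.0086). With 1 array left out, C1qc reached a limma adjusted p of up to 0.094. With the block 3 of these markers fell and 4 rose.

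Among markers of other granulocytes, Prg2 was the 1 tested eosinophil gene and fell by 1.03 ± 0.21 (limma adjusted p = 0.017), though not past the threshold without the M2 MR-positive (0.067) or the M3 MR-negative array (0.053). Its summed level was 75.9 to 126 on MR-negative and 28.8 to 48.0 on MR-positive arrays, while Epx, Prg3, Siglecf, Ccr3, Il5ra and Alox15 were detected on no array. Of 5 tested basophil and mast cell markers 1 fell, Hdc, histidine decarboxylase, by 2.86 ± 0.31 (limma adjusted p = 0.0014). Cpa3, Gata2 and Fcer1a differed by -0.37 ± 0.24, -0.33 ± 0.13 and -0.11 ± 0.16 and Cd200r3 by 0.43 ± 0.22, and none of these passed. The sums were 693 to 886 and 84.5 to 202. On MR-negative arrays the sum was mostly Hdc, whose mean log2 levels were 9.50 on MR-negative and 6.64 on MR-positive arrays. Ms4a2, Prss34, Mcpt4 and Tpsb2 were detected on no array.

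Of 4 tested T and NK cell markers 2 fell and 1 rose. Cd3g fell by 5.98 ± 0.30 (limma adjusted p = 6.4e-05). Cd3d, detected on no MR-positive array, was at least 13.7-fold lower there (limma adjusted p = 9.2e-04). Cd2, detected on no MR-negative array, was at least 1.95-fold higher on MR-positive arrays (0.0017). The sums were 2191 to 3947 on MR-negative and 356 to 477 on MR-positive arrays. They were mostly Cd3g on MR-negative arrays (mean log2 11.17, against 5.19 on MR-positive). On MR-positive arrays they were mostly Cd8b1 (8.56, against 9.06), which did not pass without the block. Cd4, Cd8a, Ncr1, Klrb1c, Nkg7 and Gzmb were detected on no array. Of 2 tested B cell markers none passed in limma, with or without the block, and 0 were under an unadjusted p of 0.05. Of 5 erythroid and platelet markers 2 rose, Pf4, platelet factor 4, by 2.56 ± 0.17 (limma adjusted p = 2.0e-04) and Ppbp by 1.48 ± 0.28 (0.013). Hbb-bt, Itga2b and Klf1 differed by -0.37 ± 0.22, -0.23 ± 0.15 and -0.10 ± 0.12 and did not pass. The sums, 364 to 507 and 2030 to 2561, were mostly Pf4, whose mean log2 levels were 8.58 on MR-negative and 11.15 on MR-positive arrays. Of 4 progenitor markers 1 fell, with sums of 272 to 540 and 404 to 602. The part of these cell types in the differences of the granule genes was not tested.

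**Figure D5:**
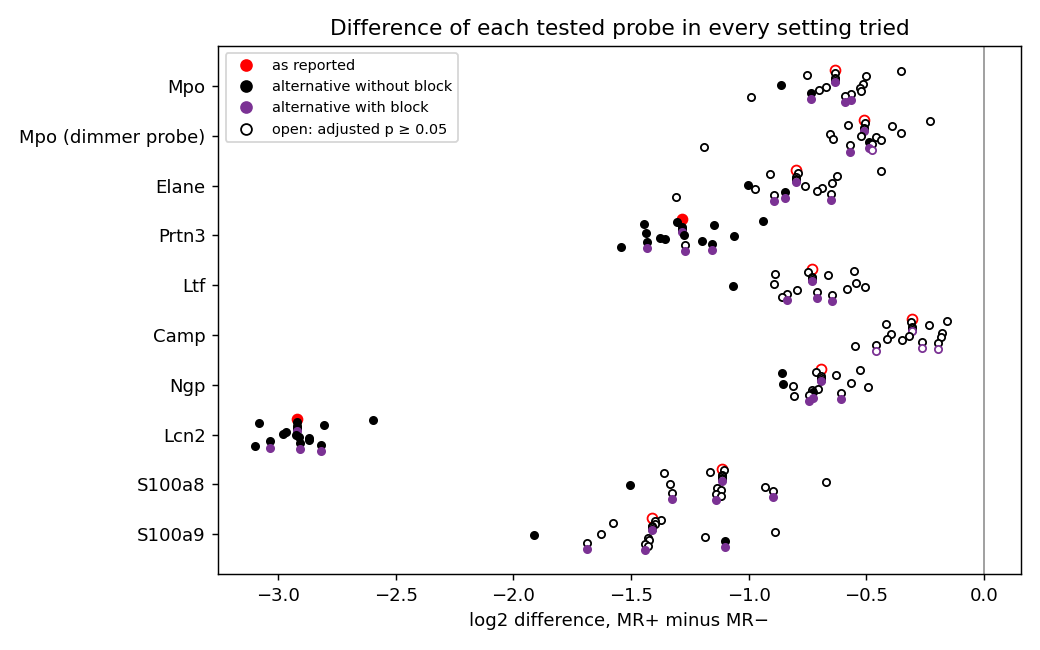
Log2 difference (x axis, MR-positive minus MR-negative) of each tested probe as reported (red), under alternatives without the block (black) and with it (purple). Filled points have a limma adjusted p under 0.05; every point lies left of 0, the Lcn2 points between -3.10 and -2.60 and the Camp points, all open, between -0.55 and -0.16.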

How the data were processed

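RNA of sorted bone marrow-derived cells was measured on 6 Illumina arrays, 3 MR-negative and 3 MR-positive, grouped by their labels. The deposited non-normalized table gives an intensity for each probe and array, from 16.8 to 26235, and, per the file headers, a p-value. That p falls as the intensity rises and comes in steps of 1 in 936, so it was read as a detection p. A further table deposited by the authors holds intensity values with the same sorted values on every array, to within 0.0709%, which follow their own arrays in rank. The sources used here do not name scanner or software.

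Non-normalized intensities were background-corrected from the detection p, quantile normalized, offset by 16 and taken to log2 (neqc of limma 3.58.1, R 4.3.3). Probes with a detection p under 0.05 on at least 3 of 6 arrays were tested (lmFit and eBayes, two-sided), with Benjamini-Hochberg adjustment over 16686 probes and a threshold of 0.05. Such log2 differences understate the change of dim probes, and a probe detected in 1 population passed the filter through it. The procedure was tested on simulated data. Genes were named from the probe annotation, which gave a single symbol for 34885 probes, several for 18 and listed none for 10378; 34807 had a gene ID in the reference. The brightest probe stood for a gene in list counts. All 10 genes matched a RefSeq promoter window.

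Arrays of 1 title number deviated together from their population means, with correlations over probes of 0.708 (M1), 0.569 (M2) and 0.275 (M3), so the numbers were taken to pair the arrays; unlike numbers M2 and M3 reached 0.382. The labels do not say what the numbers stand for, nor that arrays came from separate mice or cultures, so the p-values reflect the spread between arrays alone, and that spread may be technical. The members and lists were chosen with earlier results of these data known. Named genes were all members, Mrc1, up to 4 genes with the largest change past the threshold in each list (or its 2 lowest p-values if none passed), and the 3 closest genes to each member; others were named after their values were seen. Alternatives changed the offset, normalization, source table, filter, pairing and arrays used.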

Additional observations from a re-analysis of the deposited data

How the results depend on the processing

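No difference of a tested member probe changed sign under any alternative run. The replicate block, the paired analysis, raised the count of called member probes from 2 to 9 of 10 and that of all probes from 2298 to 4628. The block cannot change a difference or its direction, since each title number has 1 array in each population. It changes only the standard error and the p-value. Leaving out 1 array or both arrays of a number gave 1 to 7 called member probes and 216 to 3485 called probes in all. The block combined with leaving out a title number was chosen after seeing the data: without M1 it called 9 member probes and 3858 probes in all. It called 8 member probes without M2 and 9 without M3. For M2 and M3 the count over all probes is not given, so these member counts cannot be set against it. The other settings called 2 member probes, or 3 with equal medians only, where the median of all probes moved to -0.11 from 0.02 and 30.6% of the called probes were higher, against 52.2% as reported. With all 45281 probes tested, 1659 were called. Prtn3 lost its call only without both M3 arrays (limma adjusted p = 0.138, with 5.0e-04 to 0.138 over all its alternatives), a setting with 2 arrays in each population. The offset set the size of the dim differences: Elane differed by -0.44 with an offset of 50 and by -1.31 with an offset of 1, which was added after seeing the data, the brighter Mpo probe by -0.35 and -0.99, the dimmer by -0.23 and -1.19, and Camp by -0.16 and -0.55. Slide was not run as a block, since neither headers nor labels used here give one. Mpo, Elane and Camp had signals close to background, which limits how firmly their differences are known.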
